A study of Mus musculus with 79 samples.

Results

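The 10 genes described here encode receptors through which signals other than catecholamines steer fat breakdown in adipocytes, together with *Aoc3*, an amine oxidase of the adipocyte surface. They are *Adora1*, *Ptger3*, *Sucnr1*, *Hcar1*, *Hcar2*, *Ffar2*, *Ffar4*, *Tshr*, *Ntrk3* and *Aoc3*, taken by symbol from 39063 genes, and all 10 were among the 14873 genes tested, which reached 0.4 TPM on average. The study had picked *Adora1*, *Sucnr1*, *Tshr*, *Ntrk3* and *Aoc3* from the genes that leptin changed in wild-type marrow of these same mice, so what those 5 genes did there is not independent evidence. RNA came from the caudal vertebrae (CV, rich in stable bone marrow adipocytes) of 51 mice, from the lumbar vertebrae (LV, with little marrow fat) of 18 females and from the inguinal white adipose tissue (iWAT) of 10 females, making 79 libraries in 16 groups.

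Mice were 4 to 5 months old, on a mixed SJLxC57BL6 background, and carried either intact *Pnpla2* (BMAd-Pnpla2+/+, WT) or its deletion in bone marrow adipocytes (BMAd-Pnpla2-/-, cKO). *Pnpla2* encodes ATGL, the first lipase of triglyceride breakdown. For 9 days they received PBS or leptin at 100 ng per h by intracerebroventricular infusion, and 11 of the WT males also carried a subcutaneous insulin pellet. In CV there were 5 WT females with PBS and 5 with leptin, 4 cKO females with each, 5 WT males with PBS and 8 with leptin, 5 cKO males with PBS and 4 with leptin, and among the insulin-treated WT males 5 with PBS and 6 with leptin. LV was sequenced from the same WT and cKO females, and iWAT from the same WT females. The 5 mice with PBS and insulin and 3 of the 6 with leptin and insulin carry mouse numbers from a 300s series, and the other 3 with leptin and insulin (replicates 4 to 6) from a 400s series. No mouse without insulin is in either series, so insulin and series cannot be told apart, and the 400s hold no mouse with PBS. The deletion is limited to marrow adipocytes, and *Pnpla2* transcript in cKO CV with PBS was at 131.4 to 255.8 TPM in females and 135.4 to 209.4 TPM in males, against 216.6 to 287.7 and 190.6 to 294.4 TPM in WT mice, that is 71.4% and 68.9% of the WT means.

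The tissues differed in fat content as labelled. In WT females with PBS the summed TPM (a level scaled for transcript length and depth) of 6 adipocyte markers, *Adipoq*, *Plin1*, *Cidec*, *Fabp4*, *Cfd* and *Pparg*, was 56700 to 76300 in iWAT, 8400 to 11400 in CV and 270.0 to 512 in LV. CV also held skeletal muscle, with 6 muscle markers summing to 16500 to 36900 TPM, and LV was rich in neutrophils, whose 6 markers summed to 146000 to 178000 TPM. Counts on genes were 16100377 to 19364105 per CV library, 17638317 to 19100698 per iWAT library and 28717515 to 29757254 per LV library.

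Fat breakdown in adipocytes is set largely by cyclic AMP, which activates protein kinase A and through it hormone-sensitive lipase and perilipin. Receptors that couple to the inhibitory G protein lower cyclic AMP and restrain the process. In adipocytes these include *Adora1* for adenosine, *Ptger3* for prostaglandin E2, *Sucnr1* for succinate, *Hcar1* for lactate, *Hcar2* for beta-hydroxybutyrate and niacin, and *Ffar2* for short-chain fatty acids. *Ffar4* senses long-chain fatty acids, and *Tshr*, the thyrotropin receptor, couples to the stimulatory G protein and raises cyclic AMP. *Ntrk3* encodes the receptor tyrosine kinase TrkC, which binds neurotrophin-3, and *Aoc3* oxidizes primary amines to release hydrogen peroxide.

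Without leptin the 10 genes were most abundant in iWAT, as the plot of levels in 3 tissues shows. In iWAT of WT females with PBS the order from the highest mean was *Aoc3* (375.9 ± 28.6 TPM, SD, n = 5), *Ptger3* (64.6 ± 15.6), *Hcar1* (53.1 ± 21.2), *Adora1* (43.8 ± 14.3), *Tshr* (33.8 ± 8.37), *Ffar2* (26.4 ± 3.25), *Ffar4* (25.8 ± 4.42), *Hcar2* (18.1 ± 8.03), *Sucnr1* (18.1 ± 5.72) and *Ntrk3* (15.6 ± 3.26). Past *Aoc3*, each neighbouring pair in that order overlapped between mice. In CV the order was *Aoc3* (79.7 ± 15.6 TPM, SD, n = 5), *Tshr* (14.7 ± 2.71), *Ffar2* (7.89 ± 2.57), *Ffar4* (6.09 ± 0.84), *Sucnr1* (5.66 ± 1.14), *Adora1* (5.5 ± 0.77), *Hcar1* (5.39 ± 1.63), *Hcar2* (2.5 ± 0.56), *Ptger3* (2.32 ± 0.95) and *Ntrk3* (1.93 ± 0.69). *Ptger3*, next to the top in iWAT, was next to the bottom in CV. The only neighbours in the CV order whose mice did not overlap were *Aoc3* and *Tshr*, and *Hcar1* and *Hcar2*.

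**Figure D1:**
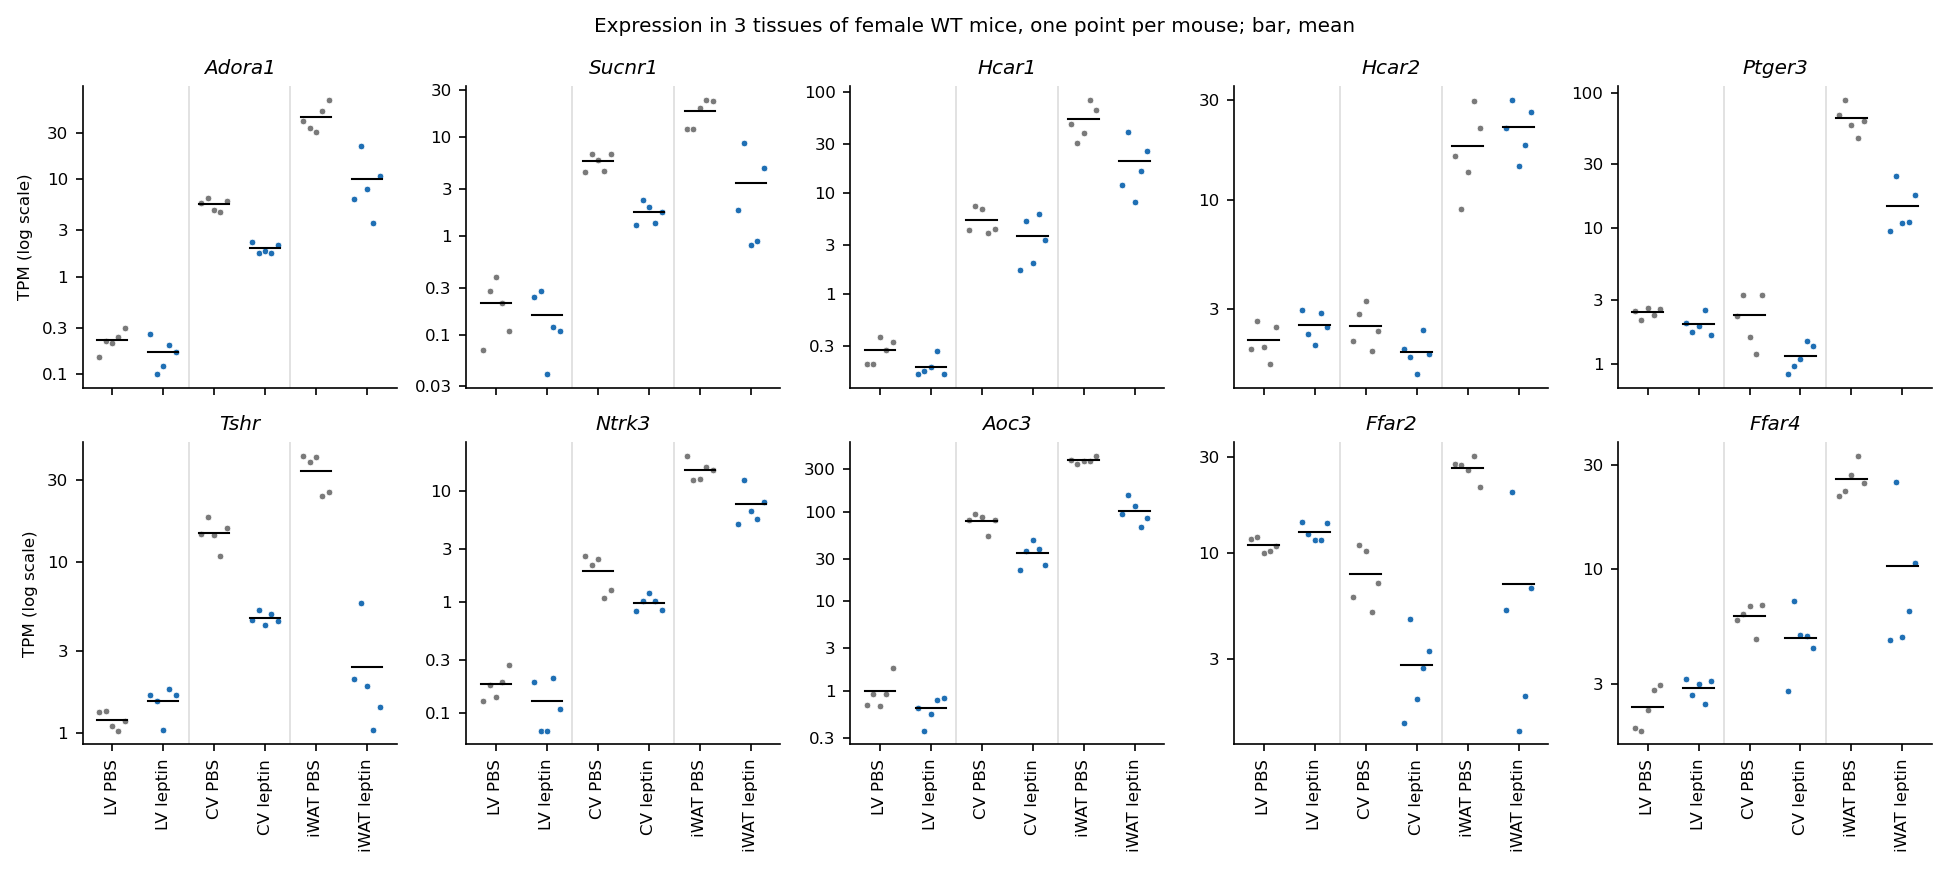
Expression of the 10 genes in LV, CV and iWAT of female WT mice with PBS (grey) or leptin (blue), 5 mice per group. The y axis is TPM on a log scale, each point is 1 mouse and bars are means. All 5 CV values with PBS lay below all 5 iWAT values for each of the 10 genes, and the LV and CV values with PBS overlapped for *Ffar2*, *Hcar2* and *Ptger3*.

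All 10 genes were lower in CV than in iWAT of WT females with PBS, with no overlap between the tissues for any of them, where 22.0% of all tested genes lay below without overlap. In edgeR's quasi-likelihood test on counts, in which a call needed an adjusted p below 0.05 together with a log2 fold change of 0.5 or more in size, the 10 were all called lower, against 25.2% of all tested genes called lower and 50.9% called either way. The tissues came from the same mice, and the tissue tests did not pair them. With the mouse as a block 10 members were called for CV against iWAT, and 9 each for CV and for iWAT against LV. *Ptger3* had the largest gap, at 1.19, 1.59, 2.28, 3.25 and 3.27 TPM in CV against 46.6, 57.5, 62.0, 68.5 and 88.5 TPM in iWAT, which made its CV mean 3.59% of the iWAT mean (log2 fold change -5.01, SE 0.23, edgeR adjusted p = 2.36e-11). *Tshr* had the smallest gap, with CV at 43.3% of iWAT (log2 fold change -1.32, SE 0.16, edgeR adjusted p = 2.06e-06). In bulk RNA, fewer adipocytes and less RNA of a gene per adipocyte cannot be told apart. Divided by each library's summed adipocyte markers, CV lay above iWAT without overlap for *Tshr* (281% of iWAT), *Sucnr1* (214%), *Ffar2* (195%) and *Ffar4* (160.0%), and below it for *Ptger3* (23.4%), while the other 5 genes overlapped. The share of all tested genes without overlap was not computed on that scale. The ratio also counts RNA of cells other than adipocytes, whose part was not tested. By the same ratio CV lay below LV, which has little marrow fat, without overlap for 6 of the 10 genes and above it for 1. *Tshr*, *Ffar2* and *Ffar4* were among those below LV, and *Sucnr1* overlapped between CV and LV.

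Against LV, the same CV libraries were called higher for 6 of the 10 genes and lower for 3, *Hcar2*, *Ptger3* and *Ffar2*, by edgeR's test (34.7% and 31.6% of all tested genes were called higher and lower, 66.3% in all). *Adora1* was at 0.15 to 0.3 TPM in LV and at 4.6 to 6.43 TPM in CV, and *Aoc3* at 0.67 to 1.82 against 53.8 to 95.1 TPM. *Sucnr1*, *Hcar1* and *Ntrk3* were at no more than 0.38 TPM in any LV library of WT females with PBS. *Ffar2*, which neutrophils also express, was at 9.97 to 12.0 TPM in LV and at 5.11 to 10.9 TPM in CV, and the part of neutrophils in that difference was not tested.

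The 3 lower calls in CV depend on the scale on which levels are compared. On the log2(TPM + 1) scale the median of all tested genes was higher in CV than in LV by 0.87, against 0.02 for counts with TMM scaling. *Hcar2* turned from -0.88 (SE 0.29, edgeR adjusted p = 0.0104) to 0.15 on log2(TPM + 1), which is -0.72 relative to that median. *Ptger3* moved from -1.22 to -0.09, or -0.96 relative to it, and *Ffar2* from -1.58 to -0.47, or -1.35 relative to it. In iWAT against LV, 9 of the 10 genes were called higher (34.2% of all tested genes, 67.1% in either direction), all but *Ffar2* (log2 fold change 0.37, SE 0.17, edgeR adjusted p = 0.0581), for which the log2(TPM + 1) scale gave 1.19 with the median gene at 0.71.

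Leptin lowered 7 of the 10 genes in CV of WT females and 6 in CV of WT males in edgeR's test, against 2.25% and 0.914% of all tested genes called lower. No member was called higher in either sex, against 2.78% of all tested genes in females and 0.834% in males. *Adora1*, *Sucnr1*, *Tshr*, *Ntrk3*, *Aoc3* and *Ffar2* fell in both sexes, and *Ptger3* fell in females. Without PBS replicate 1 or 2, or without leptin replicate 4 or 5, the count in females was 4. limma on either log2(TPM) scale called 5 in females, without *Ntrk3* and *Ptger3*, and 5 or 6 in males. The members' median log2 fold change was -1.16 in females and -0.93 in males, beside -0.01 and 0.00 over all tested genes. Of the 6 genes that fell in both sexes, 5 are those that the study selected on these mice, and *Ffar2* is the other.

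*Adora1* (gene ID 11539) lies on chromosome 1 of GRCm38.p6 from 134199215 to 134235457. In CV of WT females it was at 4.6, 4.8, 5.72, 5.93 and 6.43 TPM with PBS and at 1.75, 1.75, 1.83, 2.12 and 2.28 TPM with leptin. In WT males the 5 mice with PBS were at 2.09, 3.12, 3.43, 4.15 and 4.18 TPM, and the 8 with leptin ran from 0.82 to 1.45 TPM with a median of 1.05. Every leptin-treated mouse lay below every PBS mouse of its sex. The mean with leptin was 35.4% of that with PBS in females (log2 fold change -1.53, SE 0.13, edgeR adjusted p = 0.000235) and 32.8% in males (log2 fold change -1.73, SE 0.17, edgeR adjusted p = 9.95e-05). The span of *Adora1* shares 2023 bases with *Mybph*, a muscle gene, and the strand used in counting is not given in the sources used here. *Mybph* averaged 25.1 TPM with PBS and 31.3 TPM with leptin in CV of WT females, and 26.7 and 27.1 TPM in males. The part of *Mybph* in the *Adora1* counts was not tested.

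*Sucnr1* (gene ID 84112; chromosome 3, 60081869 to 60087566) was at 4.4, 4.54, 5.85, 6.7 and 6.79 TPM in CV of WT females with PBS and at 1.28, 1.35, 1.74, 1.97 and 2.3 TPM with leptin. Males with PBS were at 3.17, 3.22, 3.86, 3.91 and 5.49 TPM, and those with leptin at 0.53 to 2.56 TPM with a median of 0.89. The groups did not overlap in either sex. Leptin left 30.6% of the PBS mean in females (log2 fold change -1.72, SE 0.23, edgeR adjusted p = 0.00296) and 29.7% in males (log2 fold change -1.80, SE 0.31, edgeR adjusted p = 0.00601), the lowest shares among the 10 genes in CV of WT mice.

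*Ffar2* (gene ID 233079; chromosome 7, 30818031 to 30823775) was at 5.11, 6.06, 7.11, 10.2 and 10.9 TPM with PBS and at 1.44, 1.9, 2.69, 3.28 and 4.7 TPM with leptin in CV of WT females. In males the values were 3.43, 4.75, 5.05, 5.73 and 6.65 TPM with PBS and 0.7 to 3.32 TPM (median 1.37) with leptin. Here too no leptin-treated mouse reached the lowest PBS mouse of its sex. The fall was to 35.5% of the PBS mean in females (log2 fold change -1.48, SE 0.35, edgeR adjusted p = 0.0284) and to 32.8% in males (log2 fold change -1.68, SE 0.30, edgeR adjusted p = 0.00727). The female call was lost when any 1 of 5 libraries was left out, with an edgeR adjusted p of up to 0.0741.

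These 3 genes, the inhibitory receptors with the lowest shares left in both sexes, moved together. *Ntrk3* and *Aoc3* moved as closely with *Adora1* (Pearson r = 0.96 each over the means of the 10 CV groups). Sequences just before 1 start site of each of the 3 genes are shown. They are 250 bases each, from RefSeq on GRCm38.p6, read 5′ to 3′ along the gene. Capitals mark a match to AGGTCA, a hexamer that many nuclear receptors recognise, or to its reverse complement TGACCT.
Adora1 (chr1:134235458-134235707, minus strand): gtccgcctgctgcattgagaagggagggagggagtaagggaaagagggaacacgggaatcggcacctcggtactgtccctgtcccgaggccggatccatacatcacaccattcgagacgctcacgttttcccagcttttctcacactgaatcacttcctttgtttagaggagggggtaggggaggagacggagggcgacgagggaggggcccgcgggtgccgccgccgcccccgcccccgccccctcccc
Sucnr1 (chr3:60081619-60081868, plus strand): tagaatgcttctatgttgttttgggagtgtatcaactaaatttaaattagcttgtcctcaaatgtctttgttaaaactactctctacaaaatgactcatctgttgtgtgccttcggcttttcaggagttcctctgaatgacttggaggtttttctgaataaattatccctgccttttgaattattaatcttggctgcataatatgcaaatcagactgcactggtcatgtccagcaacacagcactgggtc
Ffar2 (chr7:30823776-30824025, minus strand): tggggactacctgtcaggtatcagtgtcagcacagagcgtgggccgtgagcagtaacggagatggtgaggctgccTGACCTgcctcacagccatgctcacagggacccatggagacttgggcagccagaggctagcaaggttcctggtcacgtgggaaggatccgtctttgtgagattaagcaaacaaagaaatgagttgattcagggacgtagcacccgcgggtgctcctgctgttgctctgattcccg
Promoter windows of 300 bases, from 250 before to 50 after a start site, were at hand for 6 of the 10 genes, in 10 windows. AGGTCA or TGACCT was in 3 of them, all of *Ffar2*, of which 2 overlap and share 1 match, and in 16.3% of all 32851 such windows. *Adora1* and *Ffar2* also have windows at other start sites, which are not printed, and a window of *Ffar2* among those held no match. The match in the *Ffar2* sequence printed here is TGACCT and begins 175 bases before the start site. The FoxO core TGTTTAC and the cyclic AMP response element core TGACGT, on either strand, were in none of the 10 windows and in 3.65% and 7.51% of all windows. These counts describe the windows only.

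*Tshr* (gene ID 22095; chromosome 12, 91400993 to 91540509), the member that raises cyclic AMP, was at 10.8, 14.3, 14.4, 15.6 and 18.3 TPM with PBS and at 4.25, 4.49, 4.55, 4.92 and 5.2 TPM with leptin in CV of WT females. In males it was at 7.42, 8.21, 11.1, 12.0 and 13.3 TPM with PBS and at 3.38 to 6.88 TPM (median 5.51) with leptin. The groups were apart in both sexes, by a wide gap in females and a narrow one in males. Its mean with leptin was 32.0% of the PBS mean in females (log2 fold change -1.65, SE 0.16, edgeR adjusted p = 0.000426) and 50.6% in males (log2 fold change -1.01, SE 0.17, edgeR adjusted p = 0.00617). *Tshr* had the largest difference between the sexes relative to its error, a log2 interaction of 0.61 (SE 0.26), which did not pass (edgeR adjusted p = 0.6). For the leptin effect between sexes edgeR and DESeq2 called 0 of the 10 genes and edgeR 0% of all tested genes. *Tshr* was the 1 member at an unadjusted p below 0.05 in edgeR's test, beside 1130 of all 14873 tested genes.

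*Aoc3* (gene ID 11754; chromosome 11, 101330606 to 101339430), the most abundant of the 10, was at 53.8, 81.2, 81.4, 87.1 and 95.1 TPM with PBS and at 22.6, 25.5, 36.9, 38.1 and 48.5 TPM with leptin in CV of WT females. In males it was at 28.9, 43.1, 58.3, 60.2 and 61.2 TPM with PBS and at 25.2 to 31.6 TPM (median 29.2) with leptin. Females did not overlap, whereas the lowest male with PBS lay inside the range with leptin. It fell in females (log2 fold change -1.27, SE 0.22, edgeR adjusted p = 0.00955) and in males (log2 fold change -0.85, SE 0.14, edgeR adjusted p = 0.00533).

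*Ntrk3* (gene ID 18213; chromosome 7, 78179986 to 78581034) was at 1.1, 1.29, 2.17, 2.45 and 2.62 TPM with PBS and at 0.83, 0.85, 1.02, 1.03 and 1.2 TPM with leptin in CV of WT females. Males were at 1.16, 1.48, 1.76, 1.79 and 1.91 TPM with PBS and at 0.65 to 1.21 TPM (median 0.95) with leptin. The lowest PBS mice lay inside the leptin range in both sexes. It fell in females (log2 fold change -0.96, SE 0.24, edgeR adjusted p = 0.0323) and in males (log2 fold change -0.85, SE 0.16, edgeR adjusted p = 0.009). In females the call was lost when any 1 of 6 libraries was left out, with an edgeR adjusted p of up to 0.0894, and by limma (adjusted p = 0.0658 and 0.0673).

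*Ptger3* (gene ID 19218; chromosome 3, 157566821 to 157644758) was at 1.19, 1.59, 2.28, 3.25 and 3.27 TPM with PBS and at 0.85, 0.98, 1.1, 1.36 and 1.48 TPM with leptin in CV of WT females. In males it was at 1.33, 1.52, 1.87, 1.97 and 2.24 TPM with PBS and at 0.79 to 1.75 TPM (median 1.21) with leptin. The groups overlapped in both sexes. It was called in females (log2 fold change -1.04, SE 0.27, edgeR adjusted p = 0.0376) and not in males (log2 fold change -0.60, SE 0.22, edgeR adjusted p = 0.14). The female call was lost when any 1 of 7 libraries was left out, with an edgeR adjusted p of up to 0.0997, and by limma (adjusted p = 0.0846 and 0.087). The difference between the sexes, a log2 interaction of 0.41 (SE 0.34), did not pass (edgeR adjusted p = 0.83).

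The 3 remaining receptors were not called in CV of either sex. *Hcar1* (gene ID 243270; chromosome 5, 123876739 to 123880003) spread widely, at 4.0, 4.25, 4.37, 6.94 and 7.37 TPM with PBS and 1.71, 2.01, 3.43, 5.2 and 6.09 TPM with leptin in WT females (log2 fold change -0.56, SE 0.36, edgeR adjusted p = 0.37). In males it ran from 1.57 to 6.51 TPM with PBS and from 0.32 to 4.21 TPM with leptin (log2 fold change -1.12, SE 0.53, edgeR adjusted p = 0.27). *Ffar4* (gene ID 107221; chromosome 19, 38097079 to 38114263) was at 79.3% of the PBS mean in females (-0.35, SE 0.25, edgeR adjusted p = 0.42) and 72.5% in males (-0.49, SE 0.24, edgeR adjusted p = 0.28). *Hcar2* (gene ID 80885; chromosome 5, 123863570 to 123865516) was at 75.3% of the PBS mean in females (-0.44, SE 0.21, edgeR adjusted p = 0.2) and at 141% in males (0.43, SE 0.40, edgeR adjusted p = 0.6), where 1 of the 8 leptin-treated mice was at 7.52 TPM and the others at 1.16 to 3.31 TPM.

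**Figure D2:**
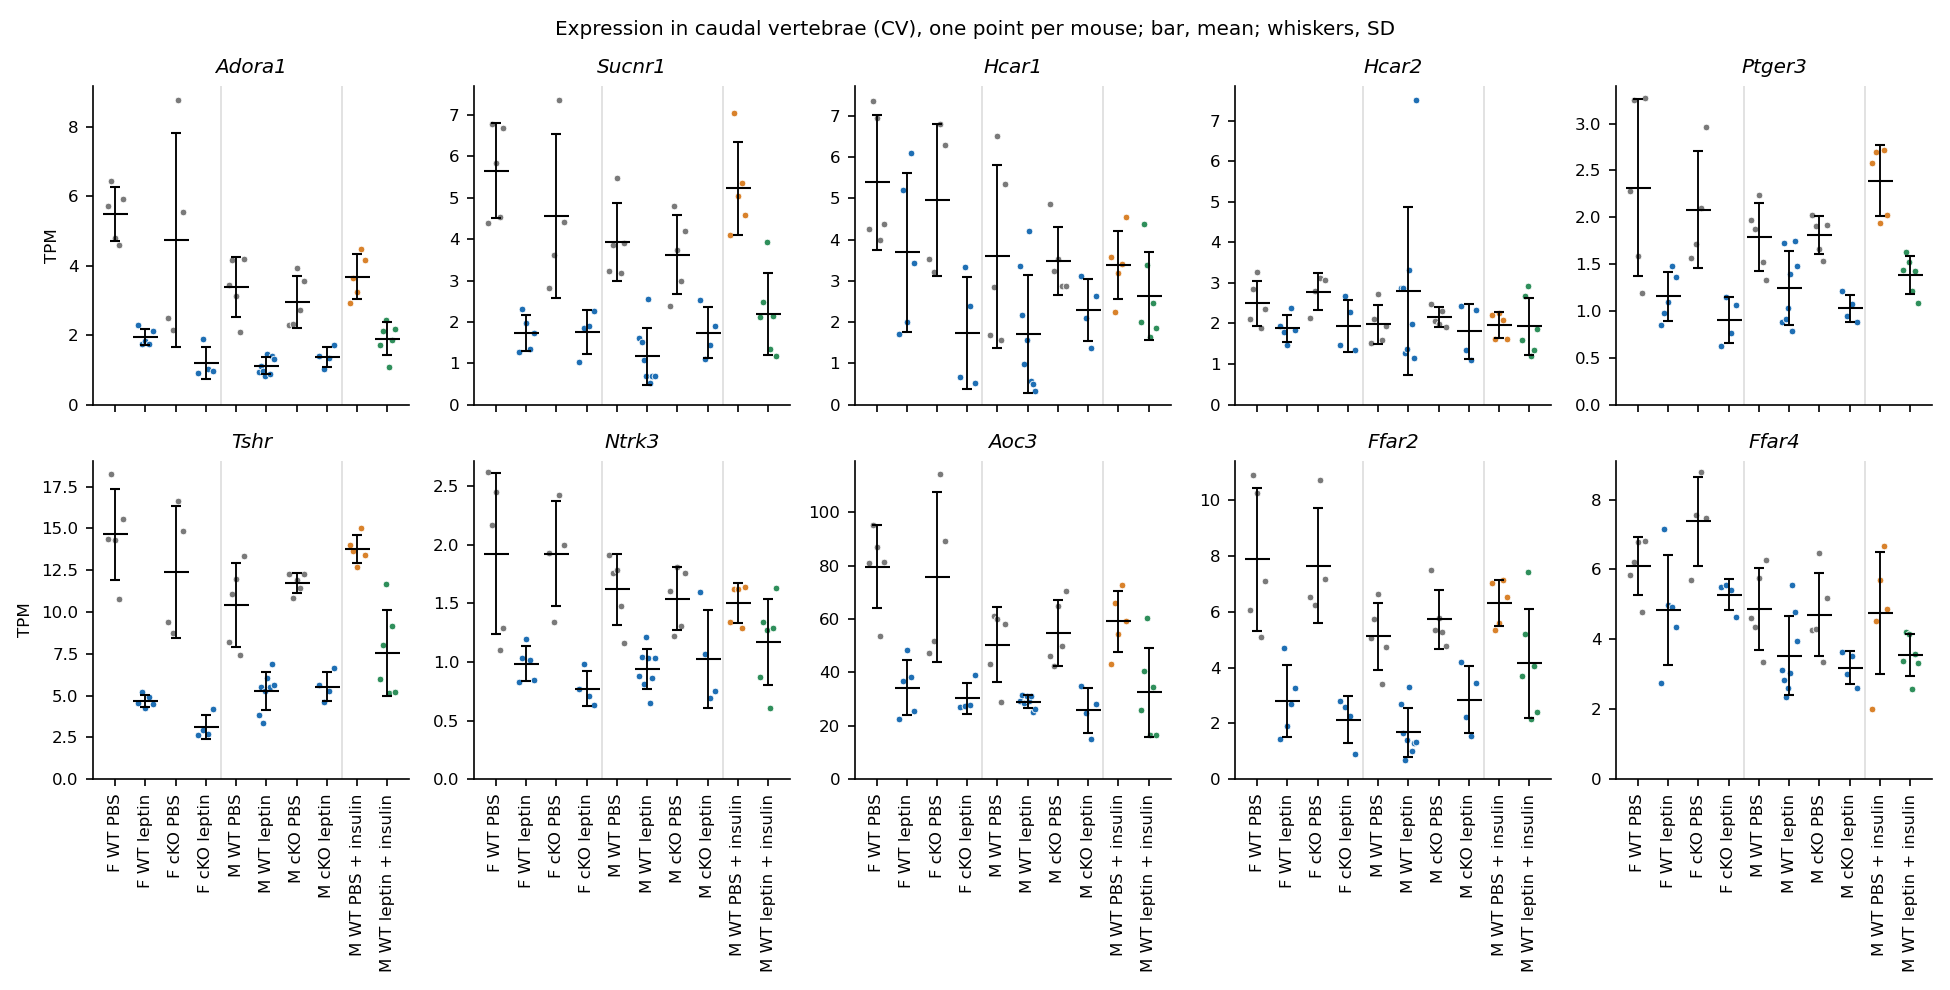
Expression of the 10 genes in CV, in TPM, for each of the 10 CV groups (F, female and M, male), with PBS in grey, leptin in blue, PBS with insulin in orange and leptin with insulin in green. Each point is 1 mouse, bars are means and whiskers SD. Leptin-treated mice lay below PBS mice without overlap for *Adora1*, *Sucnr1*, *Tshr* and *Ffar2* in both sexes of WT mice, while *Hcar2* showed no such gap.

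Leptin-treated mice lay below PBS mice without overlap for 5 of the 10 genes in CV of WT females and 4 in WT males, where 2.75% and 0.84% of all tested genes did. The summed adipocyte markers in CV of WT females were 8400 to 11400 TPM with PBS and 4940 to 9220 TPM with leptin, and in WT males 5730 to 9590 and 5340 to 8310 TPM. Of the 6 markers *Adipoq* and *Plin1* were called lower in each sex, and the median log2 fold change of the 6 was -0.41 in females and -0.37 in males. Per summed adipocyte marker, *Adora1* was still at 48.3% of PBS in females and 36.6% in males, *Sucnr1* at 39.5% and 32.9%, *Tshr* at 42.5% and 57.8%, and *Ffar2* at 45.4% and 35.4%, each without overlap between the groups in both sexes. How many of all tested genes did so per marker was not computed. *Ffar4* and *Hcar2* in females stood at 98.9% and 101% on that scale. Within the 100s and within the 600s of mouse numbers, all 10 genes had a lower mean with leptin than with PBS in CV of WT females, and 9 of the 10 did in each series in WT males.

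Markers of other cells moved with leptin in CV as well. Erythroid markers, 4 in all, summed to 1170 to 3750 TPM with PBS and 2320 to 10800 TPM with leptin in WT females, with 2 of 4 called higher, and to 1220 to 3370 and 3860 to 10500 TPM in WT males, with 3 of 4 called higher. Osteoblast markers, also 4, summed to 2200 to 6150 and 5110 to 15800 TPM in females, with 2 called higher, and to 712 to 1860 and 1000 to 2440 TPM in males, with none called. Of 6 macrophage markers 2 were called higher in females and none in males. None of 6 skeletal muscle, 6 neutrophil, 5 endothelial, 6 smooth muscle and pericyte and 4 B lineage markers was called in either sex. The 6 skeletal muscle markers nevertheless summed to 16500 to 36900 TPM with PBS and 13300 to 32700 TPM with leptin in WT females. In WT males these sums were 37500 to 44700 and 19300 to 38000 TPM. Every marker had counts in each of the CV groups, and the part of these cells in the results was not tested.

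**Figure D3:**
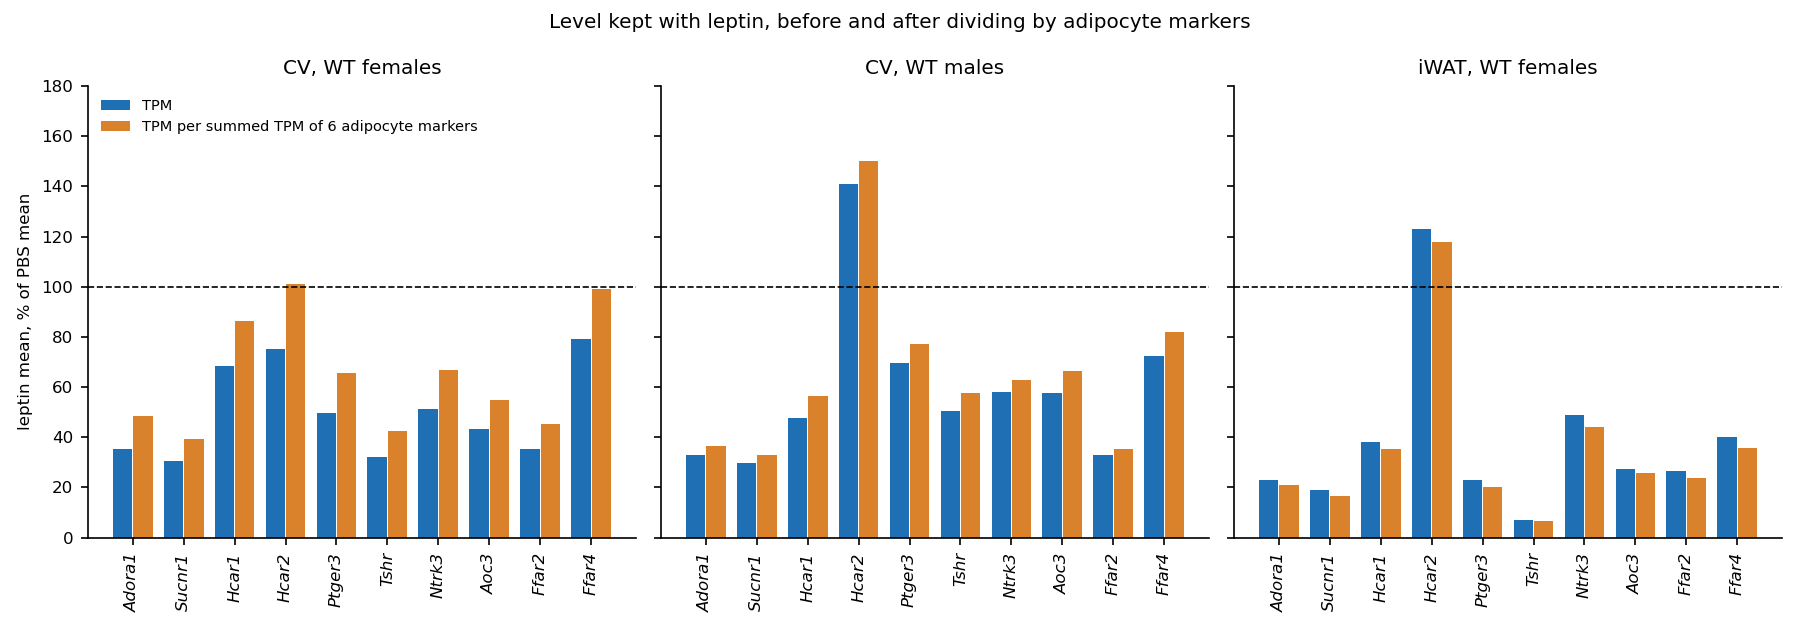
Mean level with leptin as a percentage of the mean with PBS in CV of WT females, CV of WT males and iWAT of WT females, from TPM (blue) and from TPM divided by the summed TPM of 6 adipocyte markers (orange). The dashed line marks 100%. Dividing by the markers raised the bars of all 10 genes in CV and lowered them in iWAT, and *Tshr* in iWAT was the lowest bar on either scale, at 7.21% and 6.47%.

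Deletion of *Pnpla2* in marrow adipocytes moved none of the 10 genes detectably when mice received PBS. In CV the log2 fold change of cKO against WT ran from -0.35 (*Sucnr1*, SE 0.25) to 0.25 (*Ffar4*, SE 0.16) in females and from -0.12 (*Adora1*, SE 0.25) to 0.20 (*Tshr*, SE 0.16) in males. edgeR called 0 of the 10 in either sex and 0% of all tested genes, with no member at an unadjusted p below 0.05, and DESeq2 and limma also called none. In LV of females edgeR, DESeq2 and limma called 0 of the 10 and edgeR 0% of all tested genes. There *Hcar2* was the 1 member at an unadjusted p below 0.05 in edgeR's test (log2 fold change 0.50, SE 0.21). Of all 14873 tested genes, 388 were below that p. Among cKO females with PBS, CV replicate 3 was highest for 9 of the 10 genes, for example at 8.77 TPM for *Adora1* against 2.15 to 5.54 TPM in the others.

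With leptin, all 10 means in cKO CV were lower than with PBS in both sexes. Every leptin-treated mouse lay below every PBS mouse for 8 members in females and for 5 in males (3.62% and 1.82% of all tested genes did). Per summed adipocyte marker 5 members in females and 3 in males did so, a scale on which the share of all tested genes was not computed. The adipocyte markers summed to 6320 to 9860 TPM with PBS and 5250 to 7030 TPM with leptin in cKO females, and to 6120 to 9710 and 5710 to 7300 TPM in cKO males, with a median log2 fold change of -0.59 and -0.40 and none of the 6 called. Erythroid markers summed to 545 to 2310 and 1090 to 3430 TPM in females and to 1130 to 3320 and 2460 to 12400 TPM in males, with none of the 4 called, and the part of these cells was not tested. *Tshr* was at 8.72, 9.38, 14.8 and 16.6 TPM with PBS and at 2.64, 2.67, 2.94 and 4.19 TPM with leptin in females, and at 10.8, 11.5, 11.9, 12.2 and 12.3 TPM against 4.6, 5.29, 5.63 and 6.64 TPM in males. Those groups were far apart in both sexes. In males *Tshr* was the 1 member that edgeR called (log2 fold change -1.02, SE 0.13, edgeR adjusted p = 0.0128), where 0.101% of all tested genes were called lower and 0.0874% higher, and the call was lost without leptin replicate 1 (edgeR adjusted p = 0.0536) or leptin replicate 3 (edgeR adjusted p = 0.0692). In females edgeR called 0 of the 10 and 0.0269% of all tested genes. *Tshr* was nearest (log2 fold change -1.85, SE 0.27, edgeR adjusted p = 0.0757) beside *Ntrk3* (log2 fold change -1.20, SE 0.18, edgeR adjusted p = 0.0757). In that test 9 members had an unadjusted p below 0.05, beside 1723 of all 14873 tested genes.

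The number of calls in cKO mice turned on the method. DESeq2 called 5 of the 10 genes lower in cKO females, *Adora1*, *Tshr*, *Ntrk3*, *Aoc3* and *Ffar2*, and 6 in cKO males, and over all genes it called 143 of 14840 lower in females and 110 of 14837 in males, against 4 and 15 of 14873 by edgeR. limma called 0 and 1 members. An edgeR fit of all 10 CV groups together called 7 and 2 members lower, and 311 and 37 of all 14873 tested genes lower. *Adora1* in cKO females was at 2.15, 2.5, 5.54 and 8.77 TPM with PBS and at 0.9, 0.97, 1.02 and 1.88 TPM with leptin (log2 fold change -2.0, SE 0.42, edgeR adjusted p = 0.17). *Ffar2* there was at 6.24, 6.52, 7.17 and 10.7 TPM with PBS and at 0.89, 2.28, 2.59 and 2.79 TPM with leptin (log2 fold change -1.80, SE 0.29, edgeR adjusted p = 0.0878). Neither gene overlapped between treatments.

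The leptin effect was not shown to differ between genotypes for any member. The interaction was called for 0 of the 10 genes in either sex by edgeR, DESeq2 and limma (0% of all tested genes by edgeR), with no member at an unadjusted p below 0.05. For *Adora1* it was -0.49 (SE 0.42) in females and 0.55 (SE 0.32) in males, and for *Tshr* -0.22 (SE 0.31) and -0.01 (SE 0.25), on the log2 scale. *Hcar1* had the widest error, with an interaction of -0.91 (SE 0.66) in females and 0.56 (SE 0.71) in males.

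**Figure D4:**
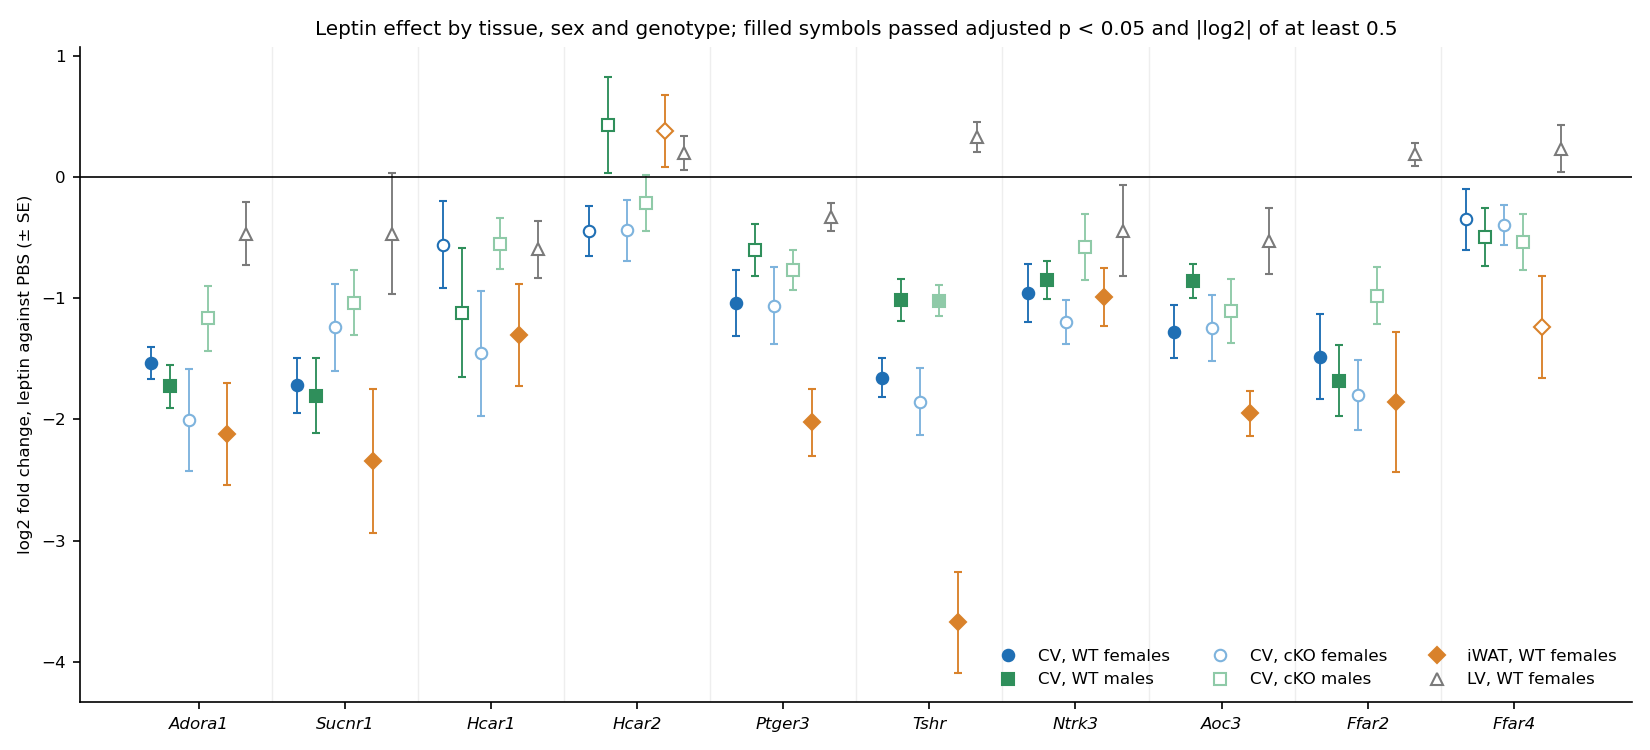
Log2 fold change of leptin against PBS with its standard error for the 10 genes in 6 comparisons, which are CV of WT and cKO mice of both sexes, iWAT of WT females and LV of WT females. Filled symbols passed edgeR's adjusted p below 0.05 with an absolute value of at least 0.5. The values for *Tshr* run from -3.67 in iWAT to 0.34 in LV, and *Hcar2* lies within 0.5 of 0 throughout.

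In iWAT of WT females leptin lowered 8 of the 10 genes (7.87% of all tested genes were called lower, 7.24% higher and 15.1% in either direction), with *Hcar2* and *Ffar4* not called. *Tshr* fell furthest, from 24.2, 25.2, 38.1, 40.5 and 41.0 TPM with PBS to 1.05, 1.42, 1.89, 2.07 and 5.77 TPM with leptin. Its mean with leptin was 7.21% of that with PBS (log2 fold change -3.67, SE 0.42, edgeR adjusted p = 0.000268). *Aoc3* went from 340.2, 369.96, 371.5, 377.8 and 419.9 TPM to 68.2, 84.4, 94.9, 116.7 and 152.6 TPM (log2 fold change -1.95, SE 0.19, edgeR adjusted p = 9.72e-05). Neither gene overlapped between treatments, and 6 of the 10 did not, where 14.3% of all tested genes lay below without overlap.

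Among the inhibitory receptors in iWAT, *Ptger3* was at 46.6, 57.5, 62.0, 68.5 and 88.5 TPM with PBS and at 9.59, 10.9, 11.2, 17.6 and 24.2 TPM with leptin (log2 fold change -2.02, SE 0.28, edgeR adjusted p = 0.000733). *Adora1* was at 30.4, 33.5, 39.2, 50.4 and 65.3 TPM against 3.56, 6.2, 7.99, 10.7 and 22.0 TPM (-2.12, SE 0.42, edgeR adjusted p = 0.00516). *Sucnr1* was at 12.0, 12.1, 19.8, 22.9 and 23.8 TPM against 0.81, 0.88, 1.83, 4.83 and 8.66 TPM (-2.34, SE 0.59, edgeR adjusted p = 0.016). All 3 were without overlap, as was *Ffar2*, at 21.3, 25.8, 27.4, 27.4 and 30.2 TPM with PBS and 1.32, 1.95, 5.19, 6.7 and 20.02 TPM with leptin (-1.85, SE 0.58, edgeR adjusted p = 0.0376). *Hcar1* (-1.30, SE 0.42, edgeR adjusted p = 0.0423) and *Ntrk3* (-0.99, SE 0.24, edgeR adjusted p = 0.0128) were called with overlapping groups. The calls of *Ffar2* and *Hcar1* were each lost when any 1 of 8 libraries was left out, with edgeR adjusted p of up to 0.0814 and 0.1.

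*Hcar2* stood at 9.02, 13.6, 16.2, 22.0 and 29.8 TPM with PBS and at 14.6, 18.2, 22.0, 26.4 and 30.1 TPM with leptin in iWAT (log2 fold change 0.38, SE 0.30, edgeR adjusted p = 0.36). The groups overlapped widely, and its mean was the only one of the 10 that was higher with leptin there. *Hcar1*, the lactate receptor next to it on chromosome 5, had its mean at 38.3% of PBS in the same libraries.

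A leptin-treated iWAT library stood apart. Replicate 2 was highest of the 5 for all 10 genes, for example at 25.1 TPM for *Ffar4* against 4.74 to 10.7 TPM in the others. Its summed adipocyte markers lay within the range of the other leptin-treated mice, and its 6 skeletal muscle markers summed to 3531 TPM against 7.09 to 666 TPM, though 2 PBS libraries reached 2477 and 2513 TPM. The part of muscle in these values was not tested. *Ffar4* was not called by edgeR with this library in (log2 fold change -1.24, SE 0.42, edgeR adjusted p = 0.0516) and was without it (-1.84, edgeR adjusted p = 0.00124), which made 9 of 10. With all libraries it was also called by DESeq2 (adjusted p = 0.0108), by limma (adjusted p = 0.0172 and 0.0182), and by edgeR with a minimum of 1 TPM (adjusted p = 0.0498) or a replicate block (adjusted p = 0.0301).

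Adipocyte markers in iWAT summed to 51200 to 87700 TPM with leptin and 56700 to 76300 TPM with PBS, and per summed marker *Tshr* was at 6.47% and *Adora1* at 21.0% of PBS. The sum there rests mostly on *Fabp4* and *Cfd*, of which *Fabp4* fell (-1.11, SE 0.27, edgeR adjusted p = 0.0129) and *Cfd* rose (1.42, SE 0.21, edgeR adjusted p = 0.0012). Erythroid markers in iWAT summed to 1400 to 1970 TPM with PBS and 143 to 821 TPM with leptin, with 3 of 4 called lower, and their part in the results was not tested. Within the 100s of mouse numbers 9 of the 10 means were lower with leptin, and within the 600s all 10 were.

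The leptin effect differed between CV and iWAT of the same WT females for 1 member in edgeR's interaction test, where 11.3% of all tested genes were called. *Tshr* fell less in CV than in iWAT, by a log2 difference of 2.05 (SE 0.44, edgeR adjusted p = 0.00434). With the mouse as a block, since the tissues come from the same animals, 3 members were called, adding *Ptger3* (1.10, edgeR adjusted p = 0.0115) and *Ffar4* (1.10, edgeR adjusted p = 0.032). Without iWAT leptin replicate 2 there were 5, namely *Tshr*, *Adora1*, *Aoc3*, *Ptger3* and *Ffar4*, each with a smaller fall in CV, and without iWAT PBS replicate 4 there were 2.

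In LV no member was called. For leptin against PBS edgeR, DESeq2 and limma called 0 of the 10 genes in WT and in cKO females. Of all tested genes edgeR called 0% in both. In edgeR's test 3 and 0 members had an unadjusted p below 0.05, beside 2183 and 1331 of all 14873 tested genes. *Tshr* was at 1.04, 1.11, 1.18, 1.33 and 1.35 TPM with PBS and at 1.05, 1.55, 1.67, 1.67 and 1.82 TPM with leptin in LV of WT females (log2 fold change 0.34, SE 0.12, edgeR adjusted p = 0.24). *Ffar2*, the most abundant of the 10 in LV, was at 9.97, 10.3, 10.9, 11.7 and 12.0 TPM with PBS and 11.5, 11.6, 12.3, 14.1 and 14.2 TPM with leptin (0.19, SE 0.10, edgeR adjusted p = 0.38). Both genes overlapped between treatments. At 0.04 to 0.38 TPM, *Adora1*, *Sucnr1*, *Hcar1* and *Ntrk3* were close to the detection limit in LV of WT females, *Sucnr1* with 2 to 16 counts per library.

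The leptin effects in CV and LV of WT females differed for 3 members (2.53% of all tested genes were called in either direction). These were *Tshr* (log2 difference, CV less LV, -1.96, SE 0.21, edgeR adjusted p = 0.000142), *Ffar2* (-1.65, SE 0.36, edgeR adjusted p = 0.0145) and *Adora1* (-1.04, SE 0.28, edgeR adjusted p = 0.0417). The call of *Adora1* did not hold with the mouse as a block (edgeR adjusted p = 0.0789) or when any 1 of 13 libraries was left out.

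Insulin was added to learn which effects of leptin in CV it offsets. Compared with leptin alone, 2 members were higher with leptin and insulin together in WT males in edgeR's test, *Adora1* and *Ffar2*, where 0.141% of all tested genes were called higher and 0.363% in either direction. In this contrast insulin and the series of mouse numbers cannot be told apart. *Ffar2* was at 2.15 to 7.43 TPM (median 3.87, n = 6) with leptin and insulin, against 0.7 to 3.32 TPM with leptin alone (log2 fold change 1.31, SE 0.28, edgeR adjusted p = 0.0306). *Adora1* was at 1.07 to 2.43 TPM (median 1.99) against 0.82 to 1.45 TPM (0.79, SE 0.17, edgeR adjusted p = 0.0304). Both pairs of groups overlapped. limma on log2(TPM + 1) and on log2(TPM + 0.1) called neither, with adjusted p between 0.0593 and 0.104. No member was called without leptin replicate 2 or 4 or without leptin and insulin replicate 3 or 5, 1 was without leptin replicate 7 or 8, and 3 were without leptin replicate 5, which added *Sucnr1*. With the insulin-treated mice of the 300s alone, *Ffar2* was called (1.65, edgeR adjusted p = 0.0393) and *Adora1* was not (0.91, edgeR adjusted p = 0.12).

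Against PBS without insulin, mice with leptin and insulin were called lower for *Adora1* alone (log2 fold change -0.94, SE 0.18, edgeR adjusted p = 0.00938), where 0.706% of all tested genes were called lower. *Ffar2* was at 81.1% of the PBS mean in that comparison (-0.37, SE 0.29, edgeR adjusted p = 0.56), *Tshr* at 72.4%, *Aoc3* at 64.5% and *Sucnr1* at 55.9%. All 10 means lay below those of PBS mice, and all 10 genes overlapped between the groups in TPM. Per summed adipocyte marker *Adora1* (51.4% of PBS), *Sucnr1* (52.8%) and *Tshr* (69.3%) lay below PBS without overlap and the other 7 overlapped. For all tested genes that share was not computed per marker. With the insulin-treated mice of the 300s alone *Adora1* was not called (-0.82, edgeR adjusted p = 0.0981). Without leptin and insulin replicate 3 *Aoc3* was called as well (-1.01, edgeR adjusted p = 0.0141). These comparisons share their leptin and PBS groups with those already given.

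Within insulin-treated males, leptin lowered 3 members, with 0.417% of all tested genes called lower. *Sucnr1* was at 4.11, 4.59, 5.04, 5.36 and 7.06 TPM with PBS and insulin and at 1.17 to 3.94 TPM (median 2.12) with leptin and insulin (log2 fold change -1.21, SE 0.30, edgeR adjusted p = 0.0496). *Adora1* was at 2.92, 3.23, 3.65, 4.15 and 4.48 TPM against 1.07 to 2.43 TPM (-0.94, SE 0.18, edgeR adjusted p = 0.0148), and *Tshr* at 12.7, 13.4, 13.6, 14.0 and 15.0 TPM against 5.17 to 11.7 TPM (-0.81, SE 0.19, edgeR adjusted p = 0.0425). None of the 3 overlapped, nor did *Ptger3* (-0.76, SE 0.19, edgeR adjusted p = 0.0576), where 2.29% of all tested genes lay below without overlap. Without PBS and insulin replicate 2 no member was called, and 1 was without PBS and insulin replicate 1, 3, 4 or 5, leptin and insulin replicate 1, 2, 4, 5 or 6, or leptin replicate 2 or 4, whose group shares the spread of the fit. The call of *Sucnr1* was lost when any 1 of 18 libraries was left out. DESeq2 called 5 members, adding *Ptger3* and *Aoc3*.

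The 400s mice, which had no PBS counterpart, lay lower than the 300s mice in 9 of the 10 means with leptin and insulin, and replicate 4, from the 400s, was lowest for 8 of the 10 genes. Within the 300s, 9 of the 10 means were below those with PBS and insulin, and *Adora1* (56.8% of PBS and insulin), *Sucnr1* (54.4%), *Ptger3* (64.0%) and *Tshr* (62.3%) did not overlap in 3 against 5 mice. The share of all tested genes without overlap was not computed for the 300s. With those mice alone edgeR called none of the 3 genes, *Adora1* (-0.82, edgeR adjusted p = 0.31), *Sucnr1* (-0.89, edgeR adjusted p = 0.6) and *Tshr* (-0.68, edgeR adjusted p = 0.45).

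No member differed detectably between PBS mice with and without insulin, which also differ in the series of mouse numbers. In PBS mice the log2 fold change with insulin ran from -0.21 (*Ntrk3*, SE 0.19) to 0.32 (*Ptger3*, SE 0.20), with 0 members and 0% of all tested genes called by edgeR, none by DESeq2 or limma, and no member at an unadjusted p below 0.05. The interaction of leptin and insulin was called for 0 members by edgeR, DESeq2 and limma (0% of all tested genes by edgeR). In edgeR's test 3 members had an unadjusted p below 0.05, beside 1385 of all 14873 tested genes. The 3 members were *Adora1* (0.79, SE 0.25, edgeR adjusted p = 0.52), *Ffar2* (1.11, SE 0.41, edgeR adjusted p = 0.53) and *Ntrk3* (0.57, SE 0.25, edgeR adjusted p = 0.53). Summed adipocyte markers were 4370 to 10600 TPM with leptin and insulin and 5340 to 8310 TPM with leptin alone, and per marker *Ffar2* was at 210.0% and *Adora1* at 140.0% of leptin alone, with overlapping groups.

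Other genes of the pathway came from 3 lists, from which *Plaat3* is named because it was called in both sexes and the rest because the counts are small, after their values were seen. Of 22 relatives and other receptors of adipocytes 16 passed the filter, and leptin changed 0 of them in CV of WT females and 2 in WT males. Of all tested genes 5.04% and 1.75% were called in either direction there. Both are prostaglandin E2 receptors that couple to the stimulatory G protein, and both rose, *Ptger2* (log2 fold change 0.99, SE 0.19, edgeR adjusted p = 0.0122) and *Ptger4* (0.59, SE 0.13, edgeR adjusted p = 0.0254). *Ptger2* rose in cKO males too (0.89, SE 0.15, edgeR adjusted p = 0.0479), and *Ptger4* (-0.50, SE 0.11, edgeR adjusted p = 0.036) and *Ptger1* (-0.65, SE 0.15, edgeR adjusted p = 0.045) were lower when insulin was added to leptin. Of the 16 genes in iWAT 4 rose, which were the glucagon receptor *Gcgr* (1.99, SE 0.35, edgeR adjusted p = 0.00264), the secretin receptor *Sctr* (1.68, SE 0.31, edgeR adjusted p = 0.00343), *Aoc2* and *Npy1r*, and 2 fell, *Ntrk2* (-1.44, SE 0.14, edgeR adjusted p = 9.80e-05) and *Mrap* (-1.11, SE 0.19, edgeR adjusted p = 0.00251). Of all tested genes 7.24% were called higher and 7.87% lower in iWAT.

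Of 21 genes of ligand supply and removal 20 were tested, and 1 fell in CV of both sexes of WT mice. Of all tested genes 2.25% were called lower in females and 0.914% in males. The gene of the list was *Plaat3*, the adipocyte phospholipase that supplies arachidonate for prostaglandin E2, in females (log2 fold change -0.92, SE 0.18, edgeR adjusted p = 0.014) and in males (-0.77, SE 0.11, edgeR adjusted p = 0.00206). In iWAT *Plaat3* was not called (-0.24, SE 0.22, edgeR adjusted p = 0.44), while 1 gene of the list rose, *Nt5e*, and 4 fell (7.24% and 7.87% of all tested genes did). Those that fell were *Ldha*, *Ptges2*, *Slc16a1*, a lactate carrier (-0.81, SE 0.18, edgeR adjusted p = 0.00955), and *Hpgd*, which degrades prostaglandin E2 (-0.65, SE 0.13, edgeR adjusted p = 0.00605).

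Of 32 genes of the cyclic AMP cascade 31 were tested, and 1 rose and 2 fell in CV of WT females while none was called in WT males. Of all tested genes 2.78% were called higher and 2.25% lower in females, and 1.75% in either direction in males. The adenylyl cyclase *Adcy3* rose (log2 fold change 0.83, SE 0.18, edgeR adjusted p = 0.0207). The cyclase *Adcy5* (-0.57, SE 0.13, edgeR adjusted p = 0.0271) and *Pde3b*, the phosphodiesterase through which insulin lowers cyclic AMP (-0.57, SE 0.15, edgeR adjusted p = 0.0392), fell. In iWAT 4 of the 31 rose, *Pde4d*, *Adcy3*, *Pde4b* and *Creb1*, and 4 fell, *Gnai1*, *Prkaca*, *Adcy5* and *Adcy6* (7.24% and 7.87% of all tested genes did). *Pde4d* rose most (2.5, SE 0.33, edgeR adjusted p = 0.000672), beside *Adcy3* (1.20, SE 0.16, edgeR adjusted p = 0.000651), and *Gnai1*, an inhibitory G protein subunit, fell most (-1.76, SE 0.17, edgeR adjusted p = 0.000108), beside *Prkaca*, the catalytic subunit of protein kinase A (-1.10, SE 0.23, edgeR adjusted p = 0.00652). The median log2 fold change of each of the 3 lists lay within 0.2 of 0 in CV of WT mice.

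Over the means of the 10 CV groups on the log2(TPM + 1) scale, the gene most like *Adora1* was *Apcdd1* (Pearson r = 0.993), followed by *Mgll*, the monoglyceride lipase (0.987), and the receptor *Adcyap1r1* (0.986). *Tshr* was most like *Bche* (0.991), with *Mtus1* (0.985) and *Lipe*, which encodes hormone-sensitive lipase (0.984), next. The nearest genes of the others were *Gstt1* for *Sucnr1* (0.986), *Aifm2* for *Aoc3* (0.994), *Mcam* for *Ptger3* (0.989), *Sncg* for *Ntrk3* (0.984), *Rhbdl1* for *Ffar2* (0.979), *Msantd3* for *Ffar4* (0.973), *Gfod2* for *Hcar1* (0.96) and *Fam71f2* for *Hcar2* (0.923). Among the 10 genes themselves, *Adora1* and *Sucnr1* had an r of 0.96, whereas *Adora1* and *Hcar2* had 0.49. These values describe 10 points that share the leptin contrast and are not tests.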

How the data were processed

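The authors extracted RNA, enriched it with oligo dT and sequenced paired reads of 100 bp on a DNBSEQ platform, filtered reads with SOAPnuke and aligned them with HISAT and Bowtie2 to GRCm38.p6 (GRCm39 is also listed in the submitters' processing notes). The counting tool and its strand setting are not given in the sources used here. The deposited tables hold estimated counts per gene (expected counts, of which 51 values in 6 genes were not whole and were rounded) and the TPM that the authors computed from them, scaled for transcript length and depth. CV libraries held 16100377 to 19364105 counts on genes (median 18181046).

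Groups follow the labels. The 14873 of 39063 genes that averaged 0.4 TPM or more across 79 libraries were tested on the counts with edgeR 4.0.16 (R 4.3.3), by the quasi-likelihood test after TMM scaling, with Benjamini-Hochberg adjustment over all genes tested. A gene was called where the adjusted p was below 0.05 and the log2 fold change 0.5 or more in size. Interaction terms tested differences between effects. TPM values were used for levels, for sums of markers and for ratios to them. Group summaries and figures were made in Python 3.11.15 with pandas 2.3.3 and numpy 2.4.6, and the fits were tested on simulated data. Each library is 1 mouse and tissue.

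Alternatives were DESeq2 1.42.0, RLE size factors, no filter, a minimum of 1 TPM (13798 genes), limma 3.58.1 on log2(TPM + 1) and on log2(TPM + 0.1), a replicate block, a covariate for the series that a mouse's number belongs to, all 10 CV groups in 1 fit, and leaving out each library. A fit without the insulin-treated mice of the 400s was added after seeing the data. Leptin and PBS mice that share a replicate number are different animals, and their deviations from the group means did not correlate above 0.1 in every pair in any leptin comparison. In LV of PBS mice all 4 pairs of WT and cKO females did (0.106 to 0.326). Tissues of the same number come from the same mice. The 10 genes and the lists were chosen with earlier results of these data known. Besides the 10 genes, the rule named genes of a list called the same way in both sexes of WT mice (*Plaat3* alone), the 3 genes most correlated with each member over the 10 CV groups, and *Pnpla2*. Other genes of the lists were named after their values were seen, because the counts called were small.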

Additional observations from a re-analysis of the deposited data

Results flagged for a closer look

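Among 160 combinations of a gene and a group, 10 held a library far from the others of its group by Dixon's criterion, which chance alone gives in about 1 of 20. In iWAT with leptin, replicate 2 was at 5.77 TPM for *Tshr* (others 1.05 to 2.07) and at 20.02 TPM for *Ffar2* (others 1.32 to 6.70). In CV of WT males with leptin, replicate 8 was at 7.52 TPM for *Hcar2* (others 1.16 to 3.31). In CV of cKO females with leptin, replicate 2 was at 1.88 TPM for *Adora1* (others 0.90 to 1.02), and replicate 4 was at 39.0 TPM for *Aoc3* (others 26.9 to 27.7) and at 4.63 TPM for *Ffar4* (others 5.41 to 5.57). In LV, *Hcar1* was at 0.36 TPM in leptin replicate 2 of cKO females (others 0.13 to 0.16) and at 0.27 TPM in leptin replicate 4 of WT females (others 0.16 to 0.19), *Ptger3* was at 2.82 TPM in PBS replicate 4 of cKO females (others 2.11 to 2.21), and *Aoc3* was at 1.82 TPM in PBS replicate 5 of WT females (others 0.67 to 0.93).

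The effect of leptin differed between tissues of the same WT females for 3 genes in edgeR's interaction test. Of all tested genes 11.3% were called in either direction for CV against iWAT and 2.53% for CV against LV. For CV against iWAT the share of members called was not above that of all tested genes. *Tshr* differed between CV and iWAT (log2 difference 2.05) and between CV and LV (-1.96). *Ffar2* (-1.65) and *Adora1* (-1.04) differed between CV and LV. That test did not pair the tissues of a mouse. With the mouse as a block *Adora1* was no longer called, and *Ptger3* and *Ffar4* were called for CV against iWAT. The call of *Adora1* was also lost when any of several single libraries was left out.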

How the results depend on the processing

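Of the values of single genes under alternatives other than leaving out 1 library, 1680 stayed on their side of the threshold, 38 passed it newly and 26 no longer passed. Changes of direction where neither fit passed are counted among the 1680. Where a fit passed, 2 values reversed. The 2 were *Hcar2* in CV against LV, at 0.15 by limma on log2(TPM + 1) and 0.21 on log2(TPM + 0.1). DESeq2 called 5 members for leptin in cKO females, 6 in cKO males, 2 for leptin with insulin against PBS and 5 against PBS with insulin. limma called 0 for leptin with insulin against leptin on either scale, and 2 for the interaction of CV and iWAT on either scale. With a replicate block 2 members were called for leptin in WT males, 1 in cKO females, 1 for leptin with insulin against leptin, and 3 for the interaction of CV and iWAT, where the number is the mouse. In the leptin comparisons within a tissue the samples share only a number. The block changed no call between WT and cKO females in LV. The series covariate called 1 in cKO females, and 1 fit of all CV groups called 7 in cKO females and 2 in cKO males. With the insulin-treated mice of the 300s alone, a fit chosen after seeing the data, 1 member was called for leptin with insulin against leptin, 0 against PBS and 0 against PBS with insulin, with 3 mice in place of 6. The cause of the other differences was not tested.

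Leaving out each library gave 4 to 7 members for leptin in WT females, 6 in WT males, 0 to 1 in cKO females (1 without leptin replicate 2), 0 to 1 in cKO males, 6 to 9 in iWAT, 0 to 3 for leptin with insulin against leptin, 1 to 2 against PBS, 0 to 4 against PBS with insulin, 1 to 5 for the interaction of CV and iWAT, and 2 to 3 for that of CV and LV. The other counts did not move. The share of higher calls over all tested genes moved from edgeR to limma on log2(TPM + 1), from 47.7% to 59.0% for leptin in WT males, 46.4% to 26.7% in cKO males, 47.9% to 24.7% in iWAT, 38.9% to 50% for leptin with insulin against leptin, 36.0% to 51.5% against PBS, 25.3% to 12.4% against PBS with insulin, 52.3% to 86.3% for CV against LV, 51.0% to 81.2% for iWAT against LV, 50.4% to 60.9% for CV against iWAT, 58.6% to 77.8% for the interaction of CV and iWAT and 77.9% to 58.1% for that of CV and LV. These methods differ in the test as well as in scaling, and which of them moved the shares was not tested. Some shares rest on few calls, 54 and 16 for leptin with insulin against leptin and 28 and 30 in cKO males. Groups of 4 or 5 mice, and in LV counts down to 2 for *Sucnr1*, limit what could be detected.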

Other observations

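With PBS, the CV means of all 10 genes were lower in WT males than in WT females, at 61.8% (*Adora1*) to 84.1% (*Ntrk3*) of the female mean. The mice of the sexes did not overlap for *Adora1* alone, whereas 25.5% of all tested genes lay lower in males without overlap and 1.7% higher. TPM levels in CV of males thus lay lower over many genes, not only these 10. The share of all tested genes with a lower mean in males was not computed. Per summed adipocyte marker all 10 genes overlapped. This comparison was not tested.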
